A study of Mus musculus with 6 samples.

Results

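Carriers that bring amino acids across the plasma membrane of HT22 cells were compared between cultures given AA147 and cultures given vehicle. The set held 9 genes, chosen by symbol as carriers of neutral and cationic amino acids, glutamine and glycine, and all 9 were among the 16472 genes of the authors' deposited table. The cystine carrier Slc7a11 was not a member. HT22 is an immortalised mouse hippocampal line, here a single line grown in a medium supplemented with serum and glutamine. AA147 is a compound known to activate ATF6, a transcription factor of the response to unfolded proteins, and also NRF2, which governs antioxidant genes. One group was treated with AA147 for 16 h, at a dose the labels write as 10 mM, and the other with DMSO for 16 h. Each group had 3 libraries, 6 in all, and the labels do not say whether these came from separate cultures, so the errors may be technical.

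Mammalian cells take up amino acids through several families of solute carriers. Exchangers such as Slc7a5 and Slc1a5 trade one amino acid for another, while sodium-coupled carriers such as Slc38a1 and Slc38a2 build up an intracellular pool that the exchangers can draw on. Slc7a5 and Slc7a6 are light chains that reach the cell surface only with the heavy chain Slc3a2. Several of these genes are known targets of ATF4, the transcription factor of the amino acid response, and leucine that enters through Slc7a5 is known to feed the growth kinase complex mTORC1. Slc6a9 takes up glycine, which in nervous tissue is a transmitter and a co-agonist of the NMDA receptor.

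The authors' deposited table holds a single comparison with 1 line per gene. It gives the mean normalized count over the 6 libraries, the log2 fold change, its standard error (SE) and an adjusted p. Values of single libraries are not part of it, so groups cannot be shown library by library. The spread between libraries enters through the SE alone. The numerator of the fold change is not named. It is read as AA147 over vehicle, because the known NRF2 targets Nqo1, at 0.93 (SE 0.067), and Gsta4, at 1.84 (SE 0.071), were positive in the authors' deposited table. Under the opposite reading each direction below would reverse. A gene was called when its adjusted p was under 0.05. Where a level in a group is given, it is the implied group average, the value that follows from the deposited mean and fold change for groups of equal size, and it has no error of its own.

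Over the whole authors' deposited table, 2741 of 13597 genes that had an adjusted p were called, which is 20.2%, with 11.1% negative and 9.05% positive. Neuronal identity rested on few genes. Of 9 neuronal markers, 3 were listed and 6 were not analysed here. In the authors' deposited table Tubb3 was called at 0.43, while Dlg4 at -0.15 and Stmn2 at -1.53, with a mean of 6.24, were not called. All 5 mesenchymal markers were listed and 3 of them, Col1a1, Col1a2 and Col3a1, were called negative, while Vim at -0.08 and Thy1 at -0.03 in the authors' deposited table were not. The implied sum of the 5 mesenchymal markers was 756588 with vehicle and 419511 with AA147. That of the 3 listed neuronal markers was 2770 and 2946. The listed astrocyte markers were 3 of 5, of which the glutamate carrier Slc1a3 was called negative. Of 4 oligodendrocyte markers 2 were listed, with neither called. Of 4 microglial markers only Csf1r was listed, at a mean of 48.0, and the authors' deposited table had it called positive, at 0.95 (SE 0.34, adjusted p 0.0278). The part of these markers in the transporter values was not tested, and in bulk RNA fewer cells of a type and less RNA per cell cannot be told apart.

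Amino acid carrier transcripts were lower with AA147 for most of the set. Of the 9 genes, 6 were called negative and 0 positive, which is 66.7% called against 20.2% of all genes tested. The members were chosen with earlier results of these data known, so the higher share may come in part from that choice. The members are abundant transcripts, and abundant genes are called more often. Among the 3554 genes with a mean between those of the lowest and the highest member, 29% were called, 15.8% negative and 13.2% positive. The median log2 fold change of the 9 members was -0.29, beside 0.01 over all genes tested. The 6 called members fell by between 11.8% and 37.0%, in the order Slc7a5, Slc3a2, Slc7a1, Slc1a5, Slc38a2 and Slc6a9. The remaining members were Slc1a4, Slc7a6 and Slc38a1. With a Bonferroni adjustment the calls of Slc7a5, Slc3a2 and Slc1a5 remained, and when tested for a change beyond 0.3 (log2) in either direction those of Slc7a5 and Slc3a2. Every family in the set with more than 1 member held both a called gene and one that was not called.

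**Figure D1:**
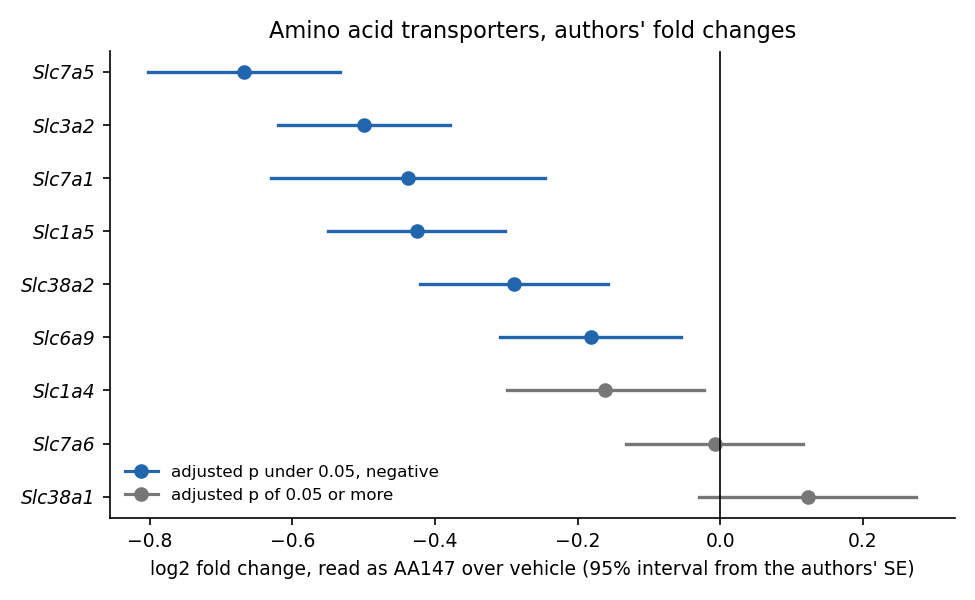
Log2 fold change of each of the 9 transporters (points) with its 95% interval from the authors' SE (lines), on a linear axis, coloured by the authors' adjusted p. Slc7a5 lies lowest at -0.67, and Slc7a6 and Slc38a1 have intervals that include 0.

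Stretches of the promoters are shown for 5 members, because genes of this set are known targets of ATF4 and because AA147 is known to act on NRF2 and ATF6. RefSeq windows for mouse assembly GRCm38.p6 were matched for 6 of the 9 members, 10 windows in all, from 250 bases before to 50 bases after a transcript start. Slc7a5, Slc1a5 and Slc38a1 had no window. The 3 windows of Slc6a9 and the further windows of Slc7a1 and Slc7a6 were searched but are not printed. Printed are 100 bases before and 10 bases after the start, 5′ to 3′ along the gene, with motif matches in capitals. Slc7a11 is printed for comparison.
Slc3a2, chr19:8713888-8713997, minus strand: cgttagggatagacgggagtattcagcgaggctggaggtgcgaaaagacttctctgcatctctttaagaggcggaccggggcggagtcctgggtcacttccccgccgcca
Slc7a1, chr5:148399895-148400004, minus strand: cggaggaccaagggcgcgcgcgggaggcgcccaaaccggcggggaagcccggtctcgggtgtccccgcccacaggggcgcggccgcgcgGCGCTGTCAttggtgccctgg
Slc38a2, chr15:96699719-96699828, minus strand: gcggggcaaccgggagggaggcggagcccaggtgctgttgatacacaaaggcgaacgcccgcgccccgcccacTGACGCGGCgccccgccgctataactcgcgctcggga
Slc1a4, chr11:20332704-20332813, minus strand: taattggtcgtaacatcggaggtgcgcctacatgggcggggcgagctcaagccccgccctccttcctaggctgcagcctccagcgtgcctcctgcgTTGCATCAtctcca
Slc7a6, chr8:106168754-106168863, plus strand: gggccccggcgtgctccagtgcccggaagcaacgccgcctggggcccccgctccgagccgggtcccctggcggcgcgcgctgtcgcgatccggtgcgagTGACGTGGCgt
Slc7a11, chr3:50443604-50443713, minus strand: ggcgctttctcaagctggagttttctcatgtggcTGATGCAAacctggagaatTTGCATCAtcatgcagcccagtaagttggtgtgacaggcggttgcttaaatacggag

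The motifs were searched on both strands of each whole window. They were the C/EBP-ATF element bound by ATF4 (TGATGNAA), the antioxidant response element bound by NRF2 (TGACNNNGC), the endoplasmic reticulum stress element bound by ATF6 and the E-box bound by MYC (CACGTG). The ATF4 element was matched in 3.97% of all 32851 windows of the table. Of the members it was matched only in Slc1a4, as TTGCATCA from position -4 to 4 around the start, a gene that was not called. Slc7a11 held it once on each strand, from -66 to -59 and from -47 to -40. The other motifs, that of NRF2 included, were not matched in the window of Slc7a11. Neither the endoplasmic reticulum stress element nor the E-box was matched in any member's window, beside 0.119% and 7.15% of all windows. That stress element was the only ATF6 motif searched. Whether the windows, or the letters matched for NRF2, hold another site for ATF6 was not tested.

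The NRF2 element was matched in 12.4% of all windows and in 6 of the 10 windows of the members, which belong to 4 genes and overlap in Slc7a6. The letters were GCGCTGTCA in Slc7a1 from -11 to -3, TGACGCGGC in Slc38a2 from -27 to -19 and TGACGTGGC in Slc7a6 from -1 to 8, which its second, overlapping window shares. Slc6a9 held a match in each of 2 of its 3 windows. These matches fell in called and in uncalled members alike. A match describes letters only, and no match says only that these letters are not in the window.

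Slc3a2 encodes the heavy chain known as CD98, which carries its light chains to the plasma membrane. Its mean in the authors' deposited table was 9789 normalized counts. The implied group averages were 11468 with vehicle and 8111 with AA147. The deposited log2 fold change was -0.50 (SE 0.062, adjusted p 3.09e-14), a fall of 29.3% with a 95% interval from 23.1% to 34.9%. The fall was over 8 times its SE, as the deposited statistic of -8.12 shows.

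Slc7a5 encodes the light chain LAT1, an exchanger of large neutral amino acids such as leucine. It had the most negative value of the 9 members. Implied averages were 10168 with vehicle and 6401 with AA147. In the authors' deposited table its log2 fold change was -0.67 (SE 0.069, adjusted p 2.93e-20), a fall of 37.0% with a 95% interval from 30.9% to 42.7%. Of the 13597 genes tested, 4.42% had a lower fold change.

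Slc7a6 encodes another light chain of Slc3a2, which exchanges cationic for neutral amino acids. It did not follow its partner. Implied averages were 3386 with vehicle and 3369 with AA147, and the deposited log2 fold change was -0.0076 (SE 0.063, adjusted p 0.957). The 95% interval ran from a fall of 8.72% to a rise of 8.41%, so a change of the size seen in Slc3a2 or Slc7a5 lay outside it.

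The difference between the light chains can be put as an interval, with the SEs of the genes combined as if independent, which genes of the same libraries need not be. The fold change of Slc7a5 was below that of Slc7a6 by -0.66 on the log2 scale, with a 95% interval from -0.84 to -0.48. Slc7a6 lay above Slc3a2 by 0.49, from 0.32 to 0.67. For Slc7a5 against Slc3a2 the difference was -0.17, from -0.35 to 0.01, an interval that includes 0. The intervals of both Slc7a5 and Slc3a2 against Slc7a6 exclude 0.

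Levels per length allow the transcripts of the heavy and light chains to be compared. Means were divided by the length of the canonical transcript, which ignores the unknown lengths used upstream. The implied level of Slc3a2 was 4488 normalized counts per kb with vehicle and 3174 with AA147. The 4 listed light chains of Slc3a2, which are Slc7a5, Slc7a6, Slc7a7 and Slc7a11, summed to 3839 per kb with vehicle and 2757 with AA147. Slc7a5 made up 75.3% of that light chain sum with vehicle and 66.0% with AA147, and Slc7a6 made up 23.5% and 32.5%. Slc7a7 and Slc7a11 were minor, at 30.9 and 15.4 per kb with vehicle. The share of Slc7a6 was thus higher with AA147 while its own level was nearly the same in both groups, and no error can be given for these shares.

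Slc7a1 encodes the cationic amino acid transporter CAT-1, which takes up arginine and lysine without a heavy chain. Its implied averages were 3324 with vehicle and 2453 with AA147. The authors' deposited table gave a log2 fold change of -0.44 (SE 0.098, adjusted p 0.00012), a fall of 26.2% with a 95% interval from 15.7% to 35.4%. Its SE was 1.39 times the median SE of the 200 genes nearest in mean, the widest of the set, while the ratios of the other 8 members lay between 0.904 and 1.13. Its transcript, at 7313 bases, was also the longest of the set. The interval against Slc7a5, with a difference of -0.23 from -0.46 to 0.0048, included 0.

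**Figure D2:**
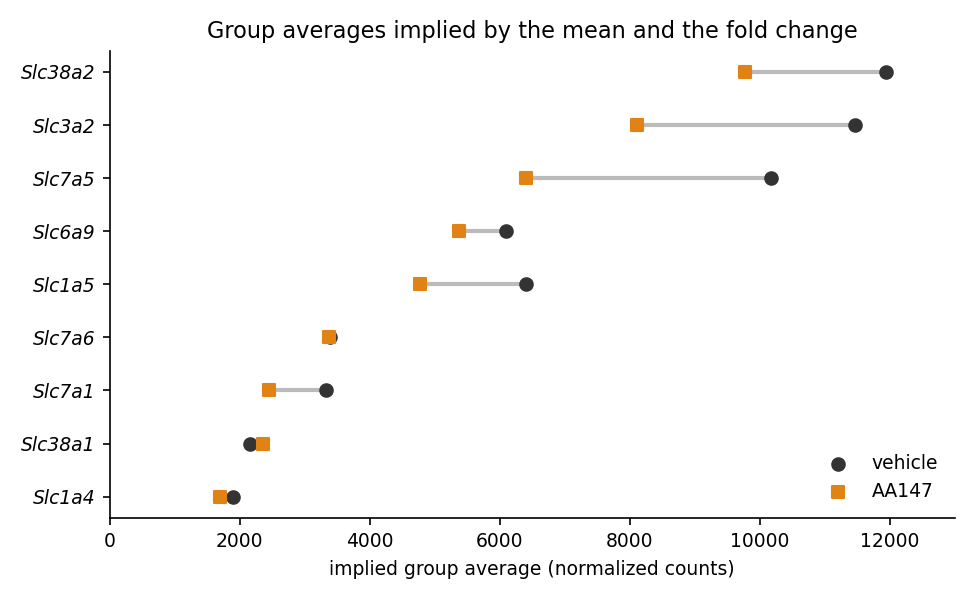
Implied group averages of the 9 transporters in normalized counts on a linear axis, vehicle as circles and AA147 as squares, ordered by the mean and shown without errors because none can be had per group. Slc7a5 goes from 10168 to 6401 and Slc7a6 from 3386 to 3369.

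The SLC1 carriers in the set are sodium-dependent exchangers of small neutral amino acids. Slc1a5, known as ASCT2 and as a route for glutamine, had implied averages of 6411 with vehicle and 4774 with AA147. Its deposited log2 fold change was -0.43 (SE 0.063, adjusted p 7.61e-10), a fall of 25.5% with a 95% interval from 18.9% to 31.7%. Slc1a4, known as ASCT1 and as a carrier of alanine, serine and cysteine, had implied averages of 1897 and 1696. The authors' deposited table gave it -0.16 (SE 0.070) with an adjusted p of 0.0903, so it was not called, although its unadjusted p was 0.0218. With its SE, a log2 fold change of at least 0.18 on either side would have been called. The fold change of Slc1a5 was below that of Slc1a4 by -0.26, with a 95% interval from -0.45 to -0.08. Slc1a5 held 83.0% of their summed level per kb with vehicle and 80.2% with AA147.

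Slc38a2 and Slc38a1 encode the sodium-coupled neutral carriers SNAT2 and SNAT1, which concentrate glutamine and alanine in the cell. SNAT2 is known for its induction when amino acids run short. Slc38a2 was the most abundant member by mean count, with implied averages of 11947 with vehicle and 9777 with AA147. Its log2 fold change in the authors' deposited table was -0.29 (SE 0.067, adjusted p 0.000237), a fall of 18.2% with a 95% interval from 10.4% to 25.3%. Slc38a1 was the sole member with a positive value. Its implied averages were 2164 and 2356, and its deposited log2 fold change of 0.12 (SE 0.078, adjusted p 0.289) was not called, with an interval from a fall of 2.05% to a rise of 21.0%.

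These carriers differed although they lie side by side. In the RefSeq gene order on chromosome 15, Slc38a1, Slc38a2 and Slc38a4 are successive protein-coding genes. Slc38a2 lay below Slc38a1 by -0.41 on the log2 scale, with a 95% interval from -0.61 to -0.21. For Slc38a4, which encodes another carrier of the family and was named after its values were seen, the authors' deposited table listed a mean of 7684 and a log2 fold change of -0.14 (SE 0.065, adjusted p 0.106). Its difference from Slc38a2 had an interval from -0.33 to 0.04. Slc38a2 made up 52.1% of the summed level per kb of these 3 genes with vehicle and 48.9% with AA147.

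Slc6a9 encodes the sodium- and chloride-coupled glycine transporter GlyT1. Implied averages were 6090 with vehicle and 5369 with AA147. Its deposited log2 fold change was -0.18 (SE 0.065, adjusted p 0.0293), a fall of 11.8% with a 95% interval from 3.71% to 19.3%. This was the smallest of the called changes, just past the 0.17 that its SE allows to be called. Subtracting a trend on transcript length, GC content and mean moved it to -0.14 and ended the call. The libraries were not stranded, and 14.7% of its exon bases also belong to an exon of the opposite-strand gene Gm17114, so reads there cannot be assigned to one strand. Slc1a4 shared 7.65% of its exon bases with an opposite-strand gene, Slc7a1 and Slc38a1 under 1%, and the other 5 members none.

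**Figure D3:**
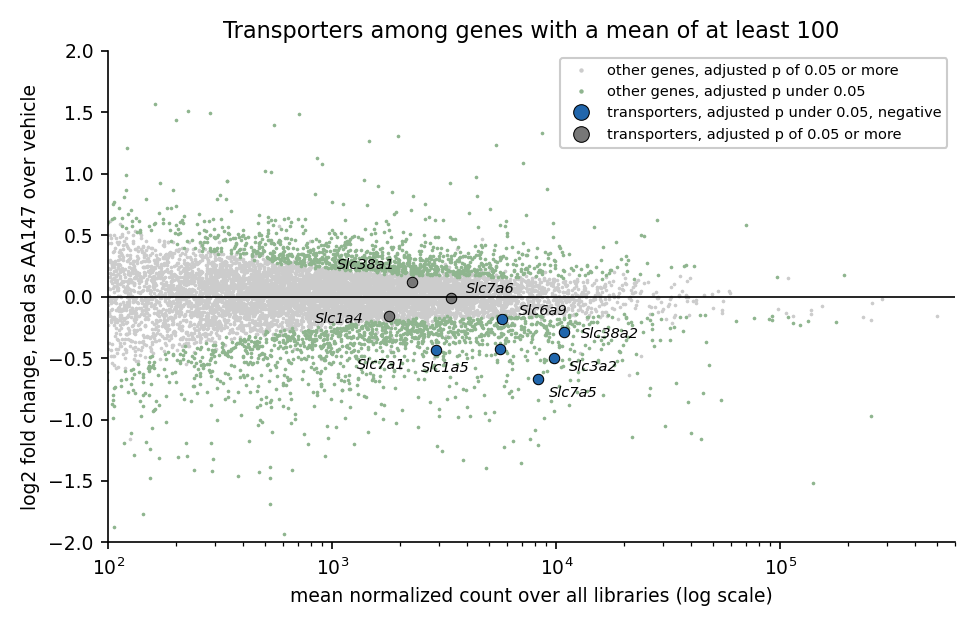
Log2 fold change against the mean normalized count on a log axis for the 10633 genes whose mean reached 100, with the 9 transporters as large circles. The axis ends at 2 on either side and leaves out 19 genes; the called transporters lie between -0.67 and -0.18 at means from 2889 to 10862.

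The members span a wide range of levels once length is taken into account. Slc3a2 had the highest mean per kb at 3831, followed by Slc7a5 at 2356, Slc38a2 at 2319, Slc1a5 at 2023 and Slc6a9 at 1647. Slc7a6 followed at 899, then Slc1a4 at 451, Slc7a1 at 395 and Slc38a1 at 318. Without values per library, the order of neighbours such as Slc7a5 and Slc38a2 could not be set against their spread. The 5 highest per kb were all called, while of the 4 lowest only Slc7a1 was. Summed over the 9 members, implied counts went from 56855 with vehicle to 44306 with AA147, 22.1% lower, and the members held 0.164% of the summed means of all genes.

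Sequence identity between members of a family was measured over their coding bases. Coding sequences of Slc7a5 and Slc7a6 were 60.4% identical, and the longest identical run in their transcripts was 14 bases. Slc1a4 and Slc1a5 were 64.4% identical with a run of 20 bases, and Slc38a1 and Slc38a2 were 60.0% identical with a run of 17 bases. The read length is not given in the sources used here.

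The other plasma membrane carriers of the same and related families had calls in both directions, but 11 tested genes are few for a share to be read. Of 34 such genes, 14 were listed and 20 were not analysed here, and 11 had an adjusted p. Of these 11, 2 were called negative and 1 positive, which is 27.3% called beside 20.2% of all genes, and the median log2 fold change of the 11 was -0.15. Only 7 of the 14 listed genes reached a mean of 100, and these held all of the calls, 2 negative and 1 positive. Over all genes with such a mean, 2643 of 10633 were called when the adjustment was made over them alone. The glutamate and aspartate carrier Slc1a3 was the lowest of the 7, with a deposited log2 fold change of -1.30 (SE 0.089, adjusted p 2.39e-45). Its implied averages were 1318 with vehicle and 537 with AA147. Slc38a6, a less studied member of the SNAT family, was called at -0.39 (SE 0.13, adjusted p 0.0176).

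Slc3a1, the heavy chain relative of Slc3a2 that serves cystine and dibasic amino acid uptake in kidney, was called positive. The authors' deposited table gave a log2 fold change of 0.58 (SE 0.19, adjusted p 0.0146) at a mean of 151, or 28.0 per kb. The heavy chains thus had opposite signs, with Slc3a1 at a far lower level. Slc7a11, the cystine and glutamate exchanger and a known target of both NRF2 and ATF4, had a mean of 125 and a deposited value of -0.40 (SE 0.21, adjusted p 0.179). It was not called, and its 95% interval on the log2 scale ran from -0.82 to 0.01. At its SE an estimate had to reach 0.54 on either side to be called, and the interval includes both no change and the value of Slc3a2.

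**Figure D4:**
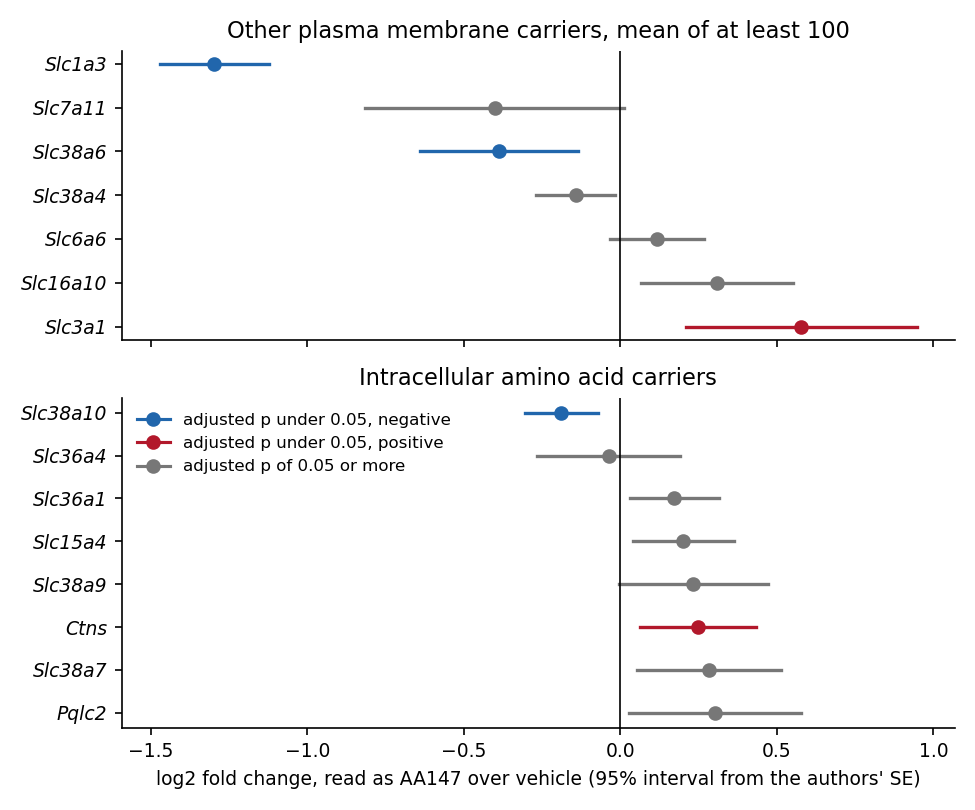
Log2 fold change with its 95% interval from the authors' SE for the 7 other plasma membrane carriers whose mean reached 100 (upper) and the 8 listed intracellular carriers (lower), coloured by the authors' adjusted p. Slc1a3 lies apart at -1.30, and 6 of the 8 intracellular carriers have positive values.

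Carriers of inner membranes, most of them lysosomal, had mostly positive values, of which few were called. Of 9 genes, 8 were listed, with a median log2 fold change of 0.22 in the authors' deposited table, 6 positive and 2 negative. Of the 8, 1 was called in each direction, a share of 25% beside 20.2% of all genes. Ctns, the lysosomal cystine exporter, had 0.25 (SE 0.095, adjusted p 0.0464) and Slc38a10 had -0.19 (SE 0.060, adjusted p 0.0115). Slc7a14 was not analysed here. The call of Ctns ended when the fold changes were centred on the median of abundant genes, a shift of 0.01.

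Few genes that sense amino acid supply for mTORC1 were called. Of 29 genes 27 were listed, 2 were called negative and 0 positive, and the median log2 fold change was -0.03. The share called was 7.41%, beside 20.2% of all genes. In the authors' deposited table the called members were Sesn1, a sestrin, at -0.34 (SE 0.10, adjusted p 0.0054) and Lamtor2, a subunit of the lysosomal Ragulator scaffold, at -0.32 (SE 0.089, adjusted p 0.00259).

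Most genes of the amino acid response that are not carriers were called negative. All 20 were listed, 14 were called negative and 0 positive, and the median log2 fold change in the authors' deposited table was -0.43. The share called was 70%, beside 20.2% over all genes tested, and this list too was chosen with earlier results of these data known. The lowest were Aldh18a1, which starts proline synthesis from glutamate, at -0.75 (SE 0.062), Psph, the last enzyme of serine synthesis, at -0.69 (SE 0.084), and Cth, which makes cysteine from cystathionine, at -0.65 (SE 0.091). Trib3, a pseudokinase induced by ATF4, lay at -0.62 (SE 0.089) and the transcription factor Atf5 at -0.52 (SE 0.073) in the authors' deposited table. Atf4 itself, named after its values were seen, lay at -0.51 (SE 0.061, adjusted p 2.67e-15). The other 6 genes of the list were not called, and 3 of the 20 had positive values. A part of ATF4 in the transporter values was not tested.

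Regulators of carrier proteins went in both directions. Of 4 genes, 2 were called positive and 1 negative in the authors' deposited table, and 1 was not called. The share called was 75%, beside 20.2% of all genes, but 4 genes are too few for a share to be read. Sgk1, a kinase known to raise the surface level of many carriers, was at 0.34 (SE 0.056, adjusted p 2.79e-08), and Rnf5, a ubiquitin ligase known to degrade Slc1a5 and Slc38a2, was at 0.49 (SE 0.14, adjusted p 0.00459). Nedd4, a ubiquitin ligase for membrane proteins, was at -0.24 (SE 0.067, adjusted p 0.00256). The values concern transcripts, and no carrier protein or uptake was measured.

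**Figure D5:**
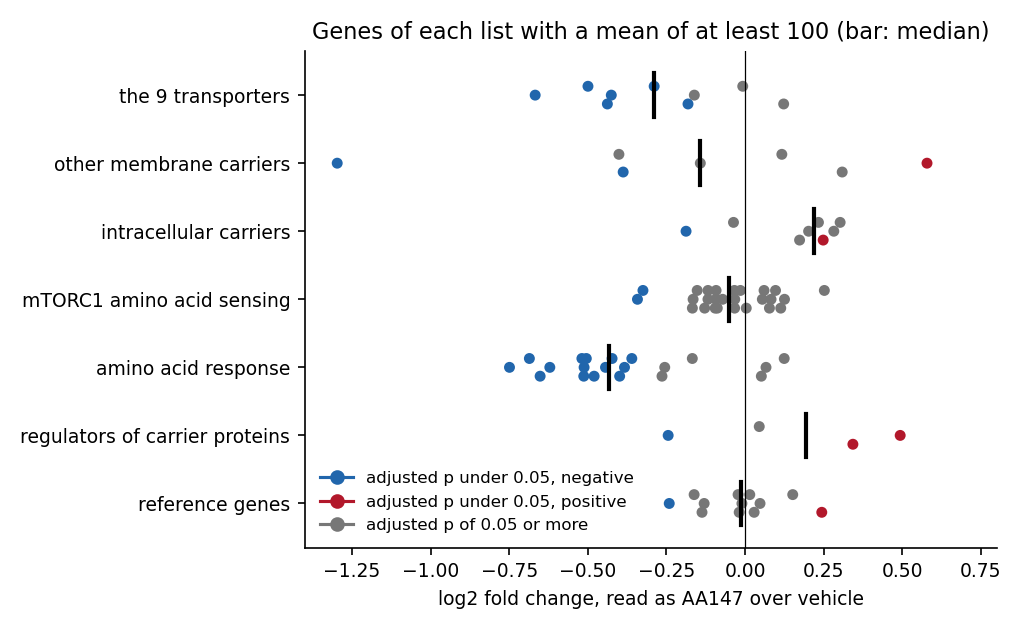
Log2 fold changes of the genes of each list whose mean reached 100 (points, coloured by the authors' adjusted p) and their median (bars). The 9 transporters have a median of -0.29 and the amino acid response genes one of -0.43, while the intracellular carriers have one of 0.22 and the 12 reference genes one of -0.01.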

How the data were processed

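HT22 RNA was sequenced as non-stranded mRNA libraries, 3 labelled AA147 and 3 vehicle, per the labels' protocols. The submitters' processing notes name DESeq2 and the build mm9. The aligner, counter, annotation and filters are not given in the sources used here. The authors deposited 1 line per gene and no value per library, so depth per library is unknown, and no test between libraries, the planned edgeR fit included, was run. Per the file headers, the authors deposited a mean normalized count, a signal averaged over libraries. They deposited a log2 fold change and the standard error of it. The deposited Wald statistic is a score. The p-value of each gene was deposited, and the adjusted one for all but 2875 genes. A Benjamini-Hochberg adjustment recomputed over the other 13597 differed from the deposited one by a relative 0.00719 at most.

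The members and lists were chosen with earlier results of these data known. Named were all members, Slc7a11, and up to 5 called genes per list with a mean of at least 100, by absolute fold change. Intervals are 95% Wald intervals. Lengths and GC content came from canonical GENCODE M39 transcripts (GRCm39), for 90.5% of genes whose mean reached 100. No coordinates of the counts are given. Alternatives were other thresholds and adjustments, centring on abundant or 12 reference genes, a null interval of 0.3 and a robust trend. Code was tested on simulated data. Python 3.11.15, pandas 2.3.3, SciPy 1.17.1, statsmodels 0.14.6, Biopython 1.88 and matplotlib 3.10.9 were used.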

Additional observations from a re-analysis of the deposited data

How the results depend on the processing

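No paired analysis was possible because 1 line per gene, without library values, is what the table holds. Leaving out each replicate, other normalizations, a DESeq2 refit and filters on counts, all planned, could not be run on it either. The intervals between members and the background of similar means were added after seeing the data.

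Of 63 values of the 9 members under 7 alternatives, 53 kept sign and call, 9 lost the call and 1 changed sign. Slc7a6 went to 0.0070 when centred on the reference genes. The largest shift was 0.045. Slc7a5 and Slc3a2 kept their call under each alternative run. Of the 6 called members, 3 remained with a Bonferroni adjustment and 2 against a null interval of 0.3, both stricter by construction, and 5 after the trend or at an adjusted p under 0.01, in each case without Slc6a9.

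Over all genes, 1818 were called at an adjusted p under 0.01, 774 with Bonferroni and 387 against the null interval. At these settings in turn the other membrane carriers had 1, 1 and 1 called, and the intracellular carriers 0, 0 and 0. After the trend 4 of 7 other membrane carriers were called, 3 negative and 1 positive. Centred on the reference genes 4 of 11 were called, 2 in each direction. The intracellular carriers had 1 called with the adjustment over all genes with a p, 1 when centred on abundant genes and 0 after the trend, but 3, 2 of them positive, when centred on the reference genes. With Bonferroni and the null interval, mTORC1 sensing genes had 0 and 0 called and regulators of carrier proteins 1 and 0. The amino acid response genes had 6 called against the null interval. Centring on the reference genes moved the share of positive calls over all genes from 44.9% to 49.6%, and Bonferroni to 32.3%. The cause of changes not due to a stricter rule was not tested.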
